A study of Mus musculus with 346 samples.

Results

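Neurog3, Neurod1, Pax4, Insm1, Nkx2-2, Rfx6, Isl1 and Tox3, transcription factors of the endocrine pancreas, were followed through single cells of early mouse liver and pancreas. They were chosen by name, and these 8 genes are 8 of the 20474 in a table whose columns are the cells of 6 plates. All cells came from Tg(Prox1-EGFP) mouse embryos, in which green fluorescent protein marks cells that use Prox1, a homeobox gene of the early liver and pancreas, and all were sorted for that fluorescence and read with Smart-seq2, a full-length single-cell method. The groups were the foregut at embryonic day (E) 8.5 (82 cells, plate 1A, labelled as endoderm), the dorsal pancreatic bud at E10.5 (48 cells on plate 2A and 38 on plate 2B), the ventral pancreatic bud at E10.5 (27 cells, plate 3), the liver bud at E10.5 (78 cells, plate 5A) and the pancreas at E14.5 (73 cells, plate 4A). Every cell carried the transgene, so there was no group without it.

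The labels name no embryo, litter or date, so each tissue and stage counts as 1 sample, and no test or p-value is given. An SD is the spread between cells, and intervals cover counting error only. Values are log2(normalized reads + 1), as deposited, and are not corrected for gene length, so levels are compared between cells and not between genes. A gene is called positive in a cell at a log2 value of at least 5, which is 31 normalized reads.

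Endocrine cells of the pancreas arise from the bud epithelium, in which Notch signalling holds most cells as progenitors. Neurog3, a basic helix-loop-helix (bHLH) factor, is switched on for a short time in the cells that leave this state, and its targets include Neurod1, Insm1, Pax4, Nkx2-2 and Rfx6, which steer these cells towards hormone-producing types. Isl1, a LIM homeobox factor, belongs to hormone-producing cells after the Neurog3 stage, but also to the mesenchyme beside the dorsal bud, while Tox3 is an HMG-box protein.

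bHLH factors such as Neurog3 and Neurod1 bind E-boxes, with the letters CANNTG, and the sequences before the RefSeq starts of both bHLH genes, of Nkx2-2 and of Isl1 are shown because these members occurred together in cells or parted most clearly. They are from RefSeq on GRCm38.p6, 5′ to 3′ on the gene's strand, from 250 bases before the RefSeq start up to the start or to the first base in this window that GENCODE M21 gives as an exon of that gene, with each CANNTG in capitals. The Nkx2-2 window lies inside the gene as GENCODE bounds it, between annotated exons and not before the outermost one, and so does the Rfx6 window, which is not printed. Neurog3 (chr10:62132840-62133089, plus strand) has 1 E-box, Neurod1 (chr2:79456752-79456886, minus strand) has 1, Nkx2-2 (chr2:147186456-147186652, minus strand) has 3 and Isl1 (chr13:116309690-116309938, minus strand) has 1.
Neurog3: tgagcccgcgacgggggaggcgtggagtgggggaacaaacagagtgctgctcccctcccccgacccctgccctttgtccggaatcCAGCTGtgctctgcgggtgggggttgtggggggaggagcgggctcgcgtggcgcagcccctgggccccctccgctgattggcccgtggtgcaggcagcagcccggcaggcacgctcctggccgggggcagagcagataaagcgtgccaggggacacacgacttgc
Neurod1: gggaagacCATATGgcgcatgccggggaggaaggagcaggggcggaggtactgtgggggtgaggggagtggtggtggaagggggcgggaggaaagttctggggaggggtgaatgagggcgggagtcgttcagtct
Nkx2-2: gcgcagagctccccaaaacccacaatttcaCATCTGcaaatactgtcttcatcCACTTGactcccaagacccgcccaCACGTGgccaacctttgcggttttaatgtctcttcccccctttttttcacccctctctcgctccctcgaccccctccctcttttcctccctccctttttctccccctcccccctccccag
Isl1: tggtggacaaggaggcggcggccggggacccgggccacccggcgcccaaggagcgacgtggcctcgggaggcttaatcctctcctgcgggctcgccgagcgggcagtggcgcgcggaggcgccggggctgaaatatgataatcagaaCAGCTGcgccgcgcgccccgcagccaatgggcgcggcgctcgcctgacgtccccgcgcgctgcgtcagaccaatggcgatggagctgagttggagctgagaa
Within the 250 bases, Tox3 had 2 E-boxes and Rfx6 had none, and 6 of the 8 members had an entry, the others being Insm1 and Pax4. CANNTG reads the same on both strands, and it occurs in 66.2% of the 32851 windows of this length before RefSeq starts, with 3 or more in 12.2%. The Nkx2-2 window is the 1 of the 4 printed that holds CATCTG, which with its other strand CAGATG is in 14.4% of all windows. A match says only that these letters are present.

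On GRCm38, Neurog3 lies on chromosome 10 (62133090 to 62134763, plus strand), Neurod1 on chromosome 2 (79452521 to 79456751, minus), Pax4 on chromosome 6 (28442334 to 28449353, minus), Insm1 on chromosome 2 (146221921 to 146225020, plus) and Nkx2-2 on chromosome 2 (147177546 to 147194243, minus). Rfx6 lies on chromosome 10 (51677756 to 51730432, plus), Isl1 on chromosome 13 (116298281 to 116309689, minus) and Tox3 on chromosome 8 (90247040 to 90348343, minus). The Neurog3 gene overlaps Fam241b on the other strand. The Nextera XT libraries do not mark strand, so strand does not part reads of the 2 genes there. The overlap is of gene bounds, and whether exons overlap was not checked. Fam241b was positive in 15 of the 19 Neurog3-positive cells. Neurod1 overlaps Cerkl, positive in 2 of 32 Neurod1-positive cells, and Nkx2-2 overlaps the antisense gene 6430503K07Rik, positive in 5 of 37.

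Median reads per cell lay between 811359 on plate 4A and 2510704.5 on plate 5A, and the median number of genes found in a cell lay between 3162 on plate 4A and 6548.5 on plate 1A. Epcam, an adhesion molecule of epithelia, was positive in 12 of 82, 41 of 48, 25 of 38, 25 of 27, 6 of 78 and 10 of 73 cells on plates 1A, 2A, 2B, 3, 5A and 4A. The E14.5 cells are labelled as pancreatic epithelium, and the data go against that for most of them: Col1a1, Col1a2 and Col3a1, collagen genes of mesenchyme, were each positive in 58 of the 64 E14.5 cells without Neurog3. The endoderm label of the foregut cells is not borne out for most of them either, since Epcam was positive in only those 12 and Krt8, a keratin of epithelia, in 1 of the 15 foregut cells with Tox3 and in 20 of the 67 without it. Prox1 transcripts were positive in 43, 43, 35, 27, 64 and 22 cells of the 6 plates in the same order.

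Outside the pancreatic plates, members other than Tox3 were positive in few cells, namely Rfx6 in 2 foregut cells, Neurod1 and Isl1 in 1 foregut cell each and Isl1 in 1 liver cell. Neurog3, the first factor of the endocrine programme, was positive in 0 of 82 foregut cells, 6 of 48 and 3 of 38 dorsal cells, 1 of 27 ventral cells, 0 of 78 liver cells and 9 of 73 E14.5 cells. Its shares were 12.5% on plate 2A (95% exact interval 4.73% to 25.2%), 7.89% on plate 2B (1.66% to 21.4%), 3.7% on plate 3 (0.0937% to 19%) and 12.3% on plate 4A (5.8% to 22.1%). A count of 0 allows up to 3.66% of foregut cells and up to 3.85% of liver cells. Neurog3 was an all-or-none reading: outside the 19 positive cells 1 foregut cell alone had any read, at 2.43.

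Neurod1, a bHLH factor downstream of Neurog3, was positive in 1, 11, 8, 1, 0 and 11 cells of plates 1A, 2A, 2B, 3, 5A and 4A. Pax4, a paired-homeobox factor of the beta and delta lineages, was positive in 0, 4, 4, 1, 0 and 8 cells, and Insm1, a zinc-finger repressor, in 0, 5, 4, 1, 0 and 9. Pax4 and Insm1 thus had no positive cell before the pancreatic buds. The intervals of the dorsal plates and of plate 4A overlap for each of these 3 genes, for Neurod1 from 12% to 37.3% on plate 2A, from 9.55% to 37.3% on plate 2B and from 7.77% to 25.4% on plate 4A.

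Nkx2-2, a homeobox factor found in progenitors and endocrine cells, was positive in 0, 14, 9, 2, 0 and 12 cells, and Rfx6, a winged-helix factor of the gut and islets, in 2, 25, 9, 2, 0 and 10. Rfx6 was the member that set plates 2A and 2B apart most, at 52.1% (37.2% to 66.7%) and 23.7% (11.4% to 40.2%) of cells. Both of the foregut cells with Rfx6 (5.78 and 6.79) were Epcam-positive and had Prox1 at 8.94 and 7.16. Nkx2-2 also had many readings under the limit, with any read in 29 of 48 cells on plate 2A and in 9 of 82 on plate 1A.

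Isl1 was positive in 1, 19, 23, 0, 1 and 18 cells, and was the most often positive member on plates 2B and 4A. Its means were 3.99 ± 5.11 on plate 2A, 5.43 ± 4.62 on plate 2B and 2.33 ± 3.99 on plate 4A (SD over 48, 38 and 73 cells). No ventral cell had an Isl1 read, which allows up to 11.1% of ventral cells. Tox3 was positive in 15, 12, 8, 4, 1 and 14 cells, so at this limit its share in the foregut, 18.3% (10.6% to 28.4%), was close to its 19.2% (10.9% to 30.1%) at E14.5. Levels were less alike, since foregut values ended at 6.67 and Neurog3-positive E14.5 cells reached 10.38. Median genes found were 6548.5 on plate 1A and 3162 on plate 4A, and their part in this was not tested.

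**Figure D1:**
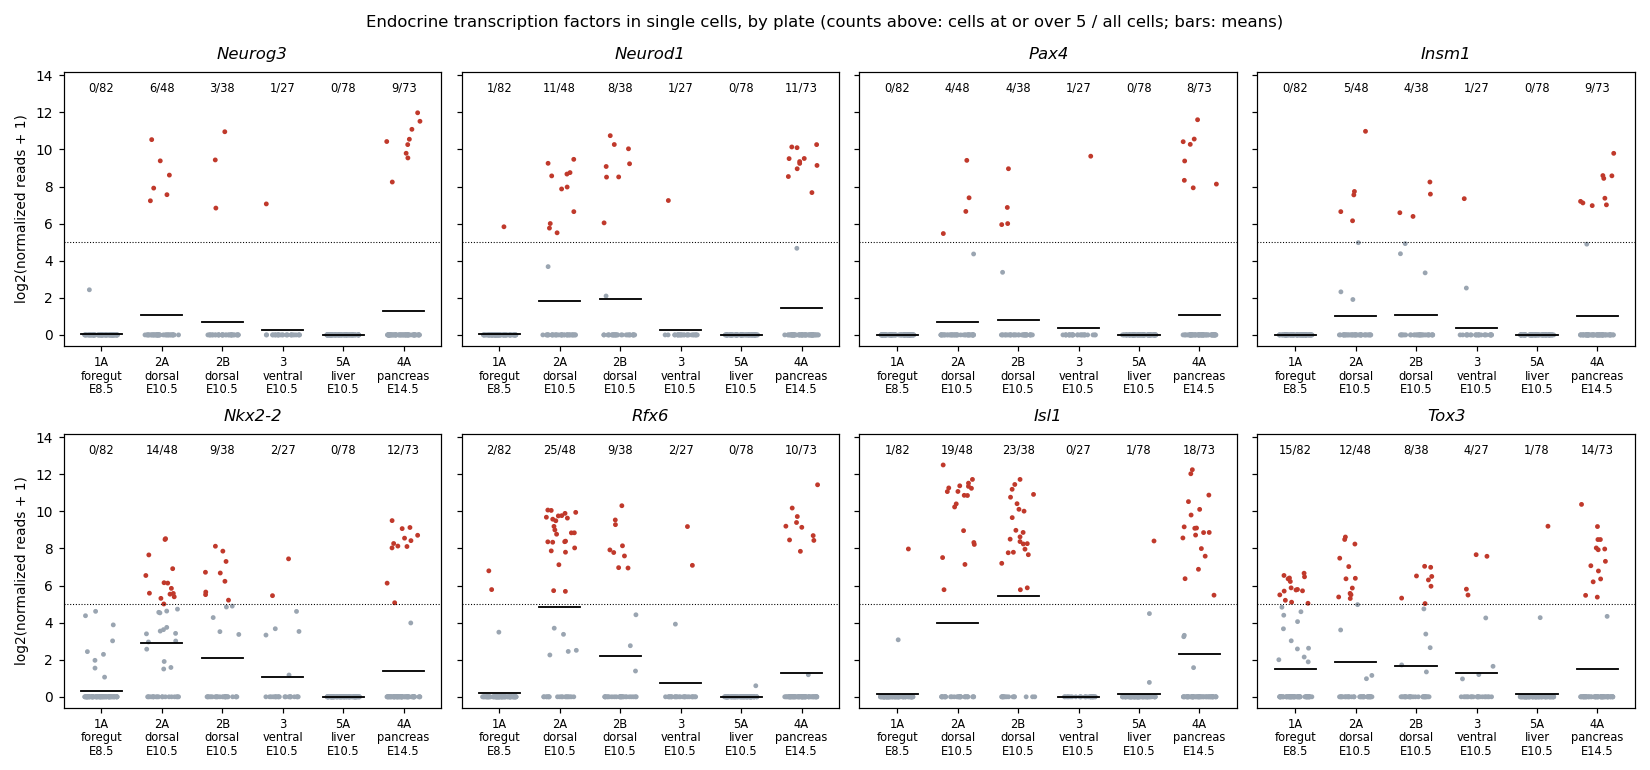
Each point is 1 cell, placed by plate (stage low to high) and by the gene's log2(normalized reads + 1), with positive cells in red, a dotted line at 5 and a black bar at the mean. Neurog3, Pax4 and Insm1 have no positive cell on plates 1A and 5A, while Tox3 is positive in 15 of 82 cells on plate 1A and Isl1 in 23 of 38 on plate 2B.

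The Tox3-positive foregut cells did not carry the other members. In 14 of the 15 Tox3 was the only member positive, with values from 5.04 to 6.67 and a median of 5.79, and the last also had Neurod1 at 5.83. None of the 15 had 3 or more of 10 epithelial genes, against 13 of the 67 foregut cells without Tox3. Pax6, a homeobox gene of endocrine and neural cells, was positive in 11 of the 15 and in 36 of the 67. Hes6 was positive in 10 of the 15 and in 32 of the 67, and Foxa2 in 6 and in 13. Other listed endocrine factors were thus found in the Tox3-positive cells, while the other members were nearly absent.

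In the dorsal bud, the split by Epcam parted 66 epithelial cells (41 on plate 2A, 25 on plate 2B) from 20 others (7 and 13), with no cell between Epcam values of 2.15 and 5.48. The members other than Isl1 were almost wholly on the epithelial side. Neurog3 was positive in 9 of 66 Epcam-positive cells, with values from 6.84 through a median of 8.62 to 10.96, and had no read in any of the 20 Epcam-negative cells. Nkx2-2 was positive in 23 of 66 (5.01, median 6.15, highest 8.53) against 0 of 20, and Neurod1 in 19 of 66 (5.51, median 8.58, highest 10.75) against 0 of 20. A count of 0 of 20 allows a share of up to 15%.

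Insm1 was positive in 9 of 66 Epcam-positive cells (6.16, median 7.55, highest 10.98) and in 0 of 20 Epcam-negative cells, Pax4 in 8 (5.47, median 6.77, highest 9.41) and 0, Rfx6 in 33 (5.69, median 8.84, highest 10.31) and 1, and Tox3 in 19 (5.03, median 6.39, highest 8.62) and 1. Isl1 ran the other way. It was positive in 27 of 66 Epcam-positive cells, or 40.9% (29% to 53.7%), against 15 of 20 Epcam-negative cells, or 75% (50.9% to 91.3%).

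Mean log2 levels gave the same picture. Rfx6 averaged 4.65 ± 4.19 in Epcam-positive and 0.42 ± 1.87 in Epcam-negative cells, a difference of 4.24, and Nkx2-2 averaged 3.31 ± 2.84 against 0, a difference of 3.31 (SD over 66 and 20 cells here and below). The differences were 2.23 for Neurod1, 1.95 for Tox3, 1.36 for Insm1, 1.19 for Neurog3 and 0.98 for Pax4. Isl1 averaged 4.15 ± 5.12 against 6.19 ± 3.94, a difference of -2.04. Of the 7 members whose mean reached 1 on either side, 6 were higher in Epcam-positive cells by at least 1 and 1 was lower, where 12.7% of the 10070 genes measured in this way were higher and 27.6% were lower. The median difference was 1.95 over these members and -0.38 over all genes measured. Pax4 missed that floor, and members at 0 among Epcam-negative cells could pass it only through the Epcam-positive ones, so the count is a description.

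Both dorsal plates gave these directions. The Isl1 difference was -2.69 on plate 2A, with 14 of 41 Epcam-positive and 5 of 7 Epcam-negative cells positive, and -1.08 on plate 2B, with 13 of 25 and 10 of 13. Rfx6 differed by 4.27 on plate 2A and 3.32 on plate 2B, and Nkx2-2 by 3.37 and 3.21. Epcam-positive cells had a median of 5529.5 genes and Epcam-negative cells 6057, and their part in these differences was not tested.

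Other genes of the endocrine programme divided by Epcam as well. Over all 10070 genes measured in this split, 12.7% were higher by at least 1 and 27.6% were lower. Of 14 further endocrine factors measured, 8 were higher in Epcam-positive dorsal cells by at least 1 and 1 was lower, with Foxa2, an endoderm factor, at 5.80 against 0 and Pax6 at 2.72 against 0, and with Runx1t1 at 2.58 against 5.66. Of 14 hormone and granule genes 10 were higher and 0 lower, with Pyy at 3.46 against 0.72 and Gcg at 2.98 against 1.10. Of 11 Notch genes 4 were higher and 1 lower, with Notch1 at 3.28 against 0.69 and Dll1 at 2.63 against 0.36. Of 10 cell cycle genes 0 were higher and 10 lower. Of 6 cell cycle exit genes 4 were higher and 1 lower, with Cdkn1a at 6.01 against 0.33.

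Isl1 was found in 2 kinds of dorsal cell. The 27 Epcam-positive cells with Isl1 had values from 5.77 to 11.72, with a median of 10.86. A median of 10 of 18 hormone and granule genes was positive in them, led by Cpe (26 of 27), a processing enzyme of hormone granules, Pyy (19), the peptide YY hormone, Ttr (19), Pcsk2 (18), a prohormone convertase, and Gcg (13), the glucagon gene. Neurod1 was positive in 18 of the 27 and Pax6 in 19. Among the 39 Epcam-positive cells without Isl1, the median was 1 of 18, Gcg was positive in 0, and Pdx1 and Sox9, factors of pancreatic progenitors, in 29 and 38.

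The 15 Epcam-negative cells with Isl1 ranged from 5.78 to 12.50, with a median of 8.24. In these Col3a1 was positive in 14, the gut mesenchyme factors Barx1 and Foxf1 in 12 each, and Pdgfra, a receptor of mesenchyme, in 9. The 5 Epcam-negative cells without Isl1 had these genes as well, with Col3a1 in 5, Barx1 and Pdgfra in 4 each and Foxf1 in 3. A median of 10 of 10 cell cycle genes was positive in the 15 Epcam-negative cells with Isl1, against a median of 3 in the Epcam-positive cells with Isl1. The summed level of the 10 mesenchyme markers was 5.1 at the lowest, 18.1 at the median and 24.8 at the highest in the 15 cells, against 0, 2.2 and 33.6 in the 27 Epcam-positive ones. Neurog3, Pax4, Insm1, Nkx2-2 and Neurod1 were not positive in any of the 15.

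Exceptions to this division were few. In 1 Epcam-negative cell Isl1 reached 12.50, the highest value of the dorsal bud, beside Rfx6 at 8.36 and Gcg at 14.9, and 14 of 18 hormone and granule genes were positive while Col3a1 and Barx1 were not. One more Epcam-negative cell with Isl1 carried 6 of 6 endothelial markers. In the other direction, 3 Epcam-positive cells with Isl1 as their only member carried 3 or more mesenchyme markers. Leaving out these 3 and the 2 Epcam-negative cells with markers of another type, an alternative chosen after seeing the data, gave a difference of -1.87 for Isl1 and 4.88 for Rfx6, with 7 members higher by at least 1.

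**Figure D2:**
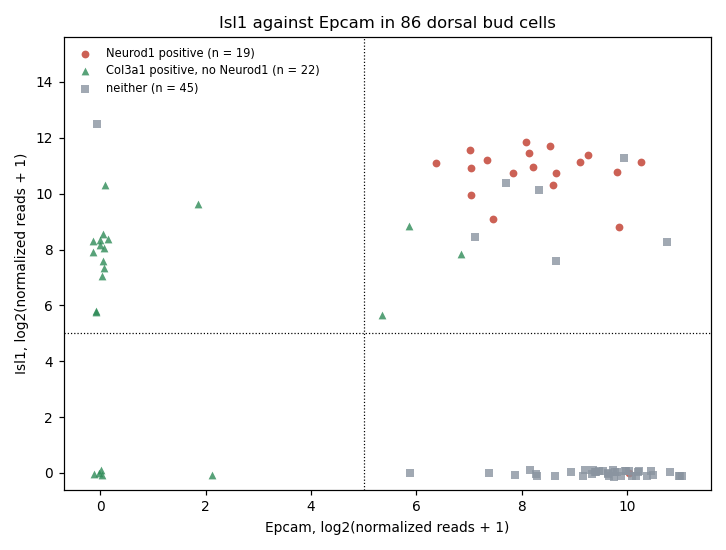
Isl1 is plotted against Epcam, both as log2(normalized reads + 1) with a small random shift to part the points, for 86 dorsal bud cells, and the dotted lines mark 5. Red circles (Neurod1-positive, 19 cells) are all right of the Epcam line, 18 of them above the Isl1 line, while most Isl1-positive cells left of the Epcam line are green triangles, positive for Col3a1 and not for Neurod1.

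Among the 66 Epcam-positive dorsal cells the members were found in graded numbers. None was positive in 12 cells, 1 in 21, 2 in 10, 3 in 9 and 4 or more in 14, or 21.2% (12.1% to 33%), and in 4 cells, 2 on each plate, all 8 were positive. No Epcam-negative cell had 4 or more. Nkx2-2, Rfx6 and Isl1 were each the only member in 6 cells, and Rfx6 with Tox3 made up 4 cells without any other member.

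The pairs were uneven. In Epcam-positive dorsal cells, all 9 with Insm1 also had Nkx2-2, which is 39.1% of the 23 with Nkx2-2, and all 8 with Pax4 also had Rfx6 and Isl1, or 24.2% of the 33 with Rfx6 and 29.6% of the 27 with Isl1. Neurod1 was found with Isl1 in 18 of its 19 cells and with Rfx6 in 17. Neurog3 was found with Nkx2-2 in 8 of its 9 cells, with Rfx6 and with Tox3 in 6 each, with Neurod1 and with Insm1 in 5 each, and with Pax4 and with Isl1 in 4 each.

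Neurog3 and Gcg were not found together. Gcg was positive in 13 Epcam-positive dorsal cells, and all 13 had Isl1 and none had Neurog3. In the 23 cells with Isl1 and without Neurog3, a median of 11 of 18 hormone and granule genes was positive. In the 9 dorsal Neurog3-positive cells the median was 2 of 18, with Pyy and Ttr positive in 4 each, Ghrl in 2 and Ppy in 1. Dll1, the Notch ligand that Neurog3-positive cells present to their neighbours, was positive in 5, against 13 of the 34 Epcam-positive cells with neither Neurog3 nor Isl1. Lmx1b, a LIM homeobox gene chosen after its values were seen, was positive in 6 of the 9.

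The 4 dorsal cells with all 8 members had Neurog3 at 7.56, 9.39, 9.44 and 10.96, Neurod1 at 5.51, 8.67, 10.75 and 8.51, and Isl1 at 11.24, 11.35, 10.77 and 8.86. Their Pax4 values were 9.41, 6.66, 6.87 and 8.96 in the same order of cells, and their Insm1 values 7.74, 10.98, 8.25 and 7.59. Gcg was at 0 in all 4, and Lmx1b was positive in all 4.

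The other 5 dorsal Neurog3-positive cells had no Isl1 read. Their Neurog3 values were 6.84, 7.23, 7.92, 8.62 and 10.53. Nkx2-2 was positive in 4 of them, and Neurod1 in 1, at 7.87. These cells had fewer of the later members than the 4 with all 8, a contrast set by the choice of cells.

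**Figure D3:**
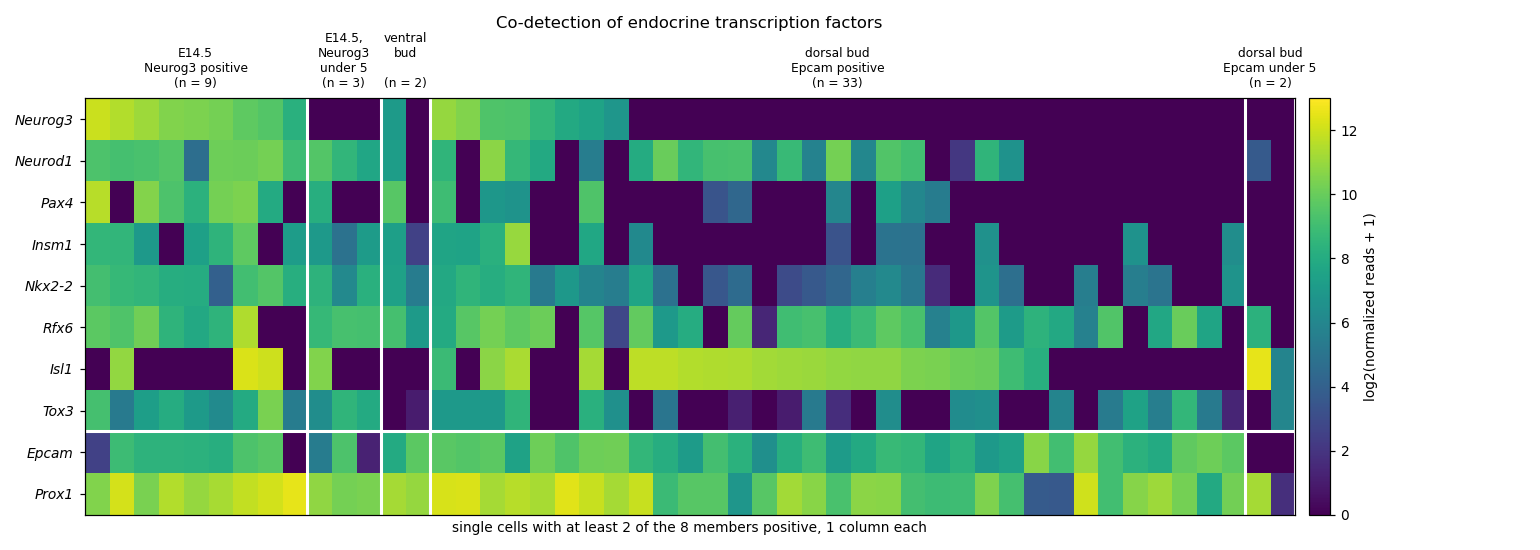
Each column is 1 of the 49 cells of the pancreatic plates with at least 2 of the 8 members positive, in 5 groups ordered by Neurog3 and then by Isl1, and colour gives log2(normalized reads + 1), with Epcam and Prox1 below the white line. The 9 E14.5 cells with Neurog3 carry 5 to 8 members each, whereas most dorsal cells with high Isl1 have no Neurog3.

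In the ventral bud 25 of 27 cells were Epcam-positive, and only 2 of the 27 had more than 1 member. One had 6 members, with Neurog3 at 7.06, Neurod1 at 7.25, Pax4 at 9.64, Insm1 at 7.35, Nkx2-2 at 7.44 and Rfx6 at 9.18, and with Isl1 and Tox3 at 0. The other had Nkx2-2 at 5.46 and Rfx6 at 7.09. In 4 more cells Tox3 alone was positive, at 5.49, 5.81, 7.58 and 7.66, and 21 cells had none.

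Compared with the 66 Epcam-positive dorsal cells, the 25 Epcam-positive ventral cells had lower mean log2 levels of each member. Isl1 averaged 0 in ventral and 4.15 ± 5.12 in dorsal cells, Rfx6 0.81 ± 2.36 and 4.65 ± 4.19, Nkx2-2 1.17 ± 2.15 and 3.31 ± 2.84, and Neurod1 0.29 ± 1.45 and 2.41 ± 3.85 (SD over 25 and 66 cells). Of 7 members measured, 4 were lower by at least 1 and 0 were higher, where 31.2% of 9594 genes were lower and 5.74% higher, and the medians were -2.12 for the members and -0.55 for all genes measured. Insm1 (-0.96), Neurog3 (-0.91), Tox3 and Pax4 differed by less than 1. Only Nkx2-2 and Tox3 reached a mean of 1 in ventral cells, and the other 5 entered through the dorsal cells alone and had to be lower in the ventral ones, so the count is a description.

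Other genes of the endocrine programme were low in the ventral cells too. Over all 9594 genes measured, 31.2% were lower by at least 1 and 5.74% were higher. Of 14 hormone and granule genes measured, 13 were lower by at least 1 and 1 was higher, namely Ttr, which liver cells also make (7.87 against 4.20). Gcg averaged 0 against 2.98, Pyy 0.60 against 3.46 and Pcsk2 0.07 against 2.70. Of 15 further endocrine factors 9 were lower and 2 higher, Pax6 among the lower with 0.04 against 2.72. Of 8 hepatoblast genes, which mark the embryonic liver, 7 were higher in ventral cells, Afp at 6.33 against 1.08. Ventral Epcam-positive cells had a median of 4360 genes and dorsal ones 5529.5, and the part of this gap in the differences was not tested. Median reads were 872181 in these ventral and 855037 in these dorsal cells. Thinning to 500000 reads per cell evens reads and not genes found. It gave differences between -4.11 and -2.07 for the 4 members lower in ventral cells.

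At E14.5 the members came as a block or hardly at all. Of 73 cells, 44 had none, 17 had 1, none had 2 or 3, and 12 had 4 to 8. Of the 17 single readings, 14 were Isl1, 2 were Tox3 and 1 was Nkx2-2. The 12 cells were the 9 with Neurog3 and 3 without it.

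**Figure D4:**
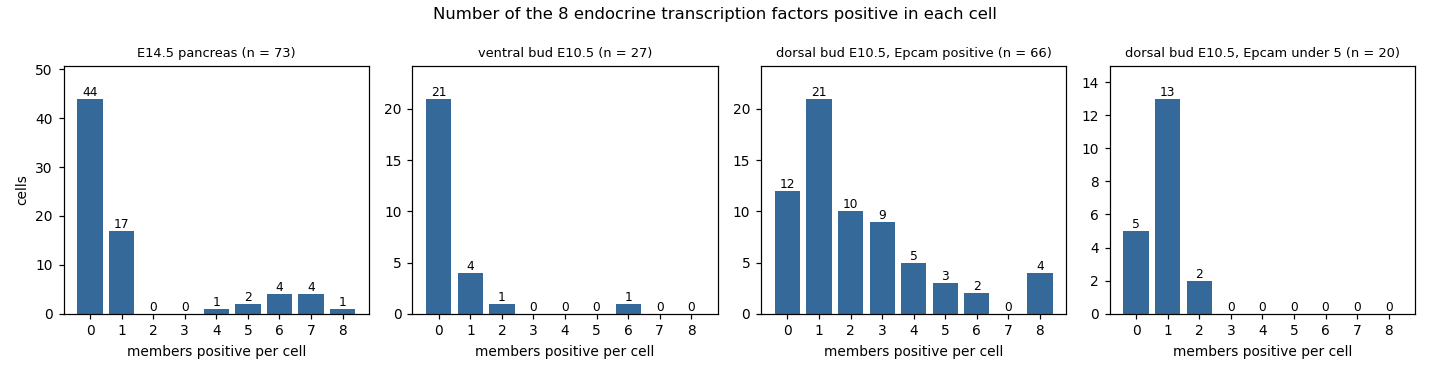
Bars give the number of cells (vertical axis, starting at 0 and scaled to each panel) by how many of the 8 members were positive. The E14.5 pancreas has 61 cells at 0 or 1 and 12 at 4 to 8 with none at 2 or 3, the Epcam-positive dorsal cells run through 0 to 6 with 4 more at 8, and Epcam-negative dorsal cells stop at 2.

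The 9 Neurog3-positive E14.5 cells had Neurog3 from 8.25 to 11.98, with a median of 10.43, and the other 64 had no Neurog3 read. Tox3 was positive in 9 of 9 Neurog3-positive cells (5.38, median 7.31, highest 10.38) against 5 of 64 of the others. Neurod1 was positive in 8 of 9 (8.96, median 9.43, highest 10.26) against 3 of 64, and Nkx2-2 in 8 of 9 (8.03, median 8.63, highest 9.50) against 4 of 64. Each was thus positive in most cells of the first group and in few of the second.

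Pax4 was positive in 7 of 9 Neurog3-positive cells (7.93, median 10.28, highest 11.60) against 1 of 64, Rfx6 in 7 (7.85, median 9.40, highest 11.44) against 3, and Insm1 in 7 (7.02, median 8.44, highest 9.79) against 2. Isl1 was positive in 3 of 9, at 10.88, 12.03 and 12.25, against 15 of 64 with values from 5.48 to 10.53. Its 3 values in Neurog3-positive cells lay above all 15 of the others.

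Mean levels were 9.04 ± 1.71 in Neurog3-positive and 0.40 ± 1.83 in the other cells for Neurod1, 8.14 ± 1.64 and 0.44 ± 1.74 for Nkx2-2, 7.61 ± 4.46 and 0.13 ± 1.02 for Pax4, 7.44 ± 1.66 and 0.66 ± 2.12 for Tox3, 7.28 ± 4.26 and 0.44 ± 1.92 for Rfx6, 6.33 ± 3.69 and 0.30 ± 1.37 for Insm1 and 3.91 ± 5.87 and 2.11 ± 3.66 for Isl1 (SD over 9 and 64 cells). The 7 members other than Neurog3, which made the split, were higher by 1.79 (Isl1) to 8.64 (Neurod1), where 34.5% of 8657 genes measured were higher by at least 1 and 23.5% were lower. Only Isl1 reached a mean of 1 in the cells without Neurog3, and the others entered through the Neurog3-positive cells alone and had to be higher there, so this too is a description. Mesenchyme differed along with the split: 3 or more of 10 mesenchyme markers were positive in 58 of the 61 cells without Neurog3 and with under 4 members, and none of the 10 was positive in any Neurog3-positive cell.

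Within the 10 Epcam-positive E14.5 cells, 7 with Neurog3 and 3 without, the differences were smaller for each of the 7. They were 5.42 for Pax4, 2.99 for Neurod1, 2.53 for Tox3, 2.00 for Rfx6, 1.93 for Insm1, 1.51 for Isl1 and 1.45 for Nkx2-2. The 3 Epcam-positive cells without Neurog3 had Nkx2-2 at 5.07, 6.13 and 8.42 and Neurod1 at 0, 8.54 and 9.51, so they overlap the 7 others for both genes.

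The 3 cells without Neurog3 but with 4 or more members carried more hormone and granule genes. One had 7 members, with Neurod1 at 9.51, Pax4 at 8.13, Insm1 at 6.97, Nkx2-2 at 8.42, Rfx6 at 8.69, Isl1 at 10.53 and Tox3 at 6.36. The others had Neurod1 at 7.68 and 8.54 and Rfx6 at 9.14 and 9.20, with no Isl1. In these 3 cells 7, 8 and 9 of 18 hormone and granule genes were positive, against a median of 5 in the 9 Neurog3-positive cells. Pyy, Chgb and the transcription factor Pax6 were positive in each of the 3. Among the 9 Neurog3-positive cells Pyy was positive in 1, and Chgb and Pax6 in 6 each.

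Isl1 at E14.5 again had 2 settings. In the 14 cells where it was the only member, Col1a1, Col1a2 and Col3a1 were positive in 14, no epithelial gene was positive, and Hand2, a mesenchyme factor, was positive in 7, as it was in 22 of the 44 cells with no member. In the 4 cells where it came with other members, all 10 mesenchyme markers were at 0 and Cpe was positive in 4. Of those 44 cells, 42 had 3 or more mesenchyme markers, as did all 14 with Isl1 alone.

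Other gene lists also differed by Neurog3 at E14.5, not all in the direction of the members. Of all 8657 genes measured in this split, 34.5% were higher by at least 1 and 23.5% were lower. Of 15 other endocrine factors measured, 13 were higher in Neurog3-positive cells by at least 1 and 0 were lower, with Hes6, a Hes-family factor, at 9.33 against 2.13 and Pax6 at 5.47 against 0.48. Of 11 Notch genes, 5 were higher and 4 lower. Mfng, a sugar transferase that modifies Notch, averaged 6.0 against 0.38 and the ligand gene Dll4 4.14 against 0.14, while Notch2 averaged 0.92 against 7.49 and the Notch target Hes1 0 against 3.93. Of 6 cell cycle exit genes 5 were higher, with the inhibitor Cdkn1a at 10.54 against 0.48 and Btg2 at 8.85 against 0.68, and Cdkn1c was lower at 5.25 against 9.41. Of 9 cell cycle genes 0 were higher and 7 lower, with Mcm6 at 1.08 against 5.83. The 64 cells without Neurog3 are mostly mesenchymal by their markers, and the part of that in these values was not tested.

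Neurog3-positive cells of the 2 stages were set side by side, 9 at E14.5 and 9 of the dorsal bud at E10.5. Neurog3 ranged from 8.25 to 11.98 at E14.5 and from 6.84 to 10.96 at E10.5, and averaged 10.38 ± 1.12 and 8.72 ± 1.46, a difference of 1.66, with overlap. Neurod1 averaged 9.04 ± 1.71 and 4.59 ± 4.55, Pax4 7.61 ± 4.46 and 3.55 ± 4.29 and Tox3 7.44 ± 1.66 and 4.92 ± 3.74 (SD over 9 and 9 cells). Differences were 4.45 for Neurod1, 4.07 for Pax4, 2.52 for Tox3, 1.65 for Insm1, 1.34 for Nkx2-2, 0.61 for Rfx6 and -0.79 for Isl1.

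Of these 8 members 6 were higher by at least 1 at E14.5 and 0 were lower, where 20.6% of 9132 genes measured were higher and 42.3% lower, with medians of 1.66 and -0.64. Positive cells at E14.5 and E10.5 numbered 8 and 5 for Neurod1, 7 and 4 for Pax4, 9 and 6 for Tox3, 7 and 5 for Insm1, 8 and 8 for Nkx2-2, 7 and 6 for Rfx6 and 3 and 4 for Isl1. Most of the gap in Neurod1 and Pax4 thus lay in how many cells read 0. With 9 cells each and exact intervals of 51.8% to 99.7% and 21.2% to 86.3% for the share with Neurod1, these shares overlap. The tissue dissected and the stage differ together between the groups and cannot be told apart.

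**Figure D5:**
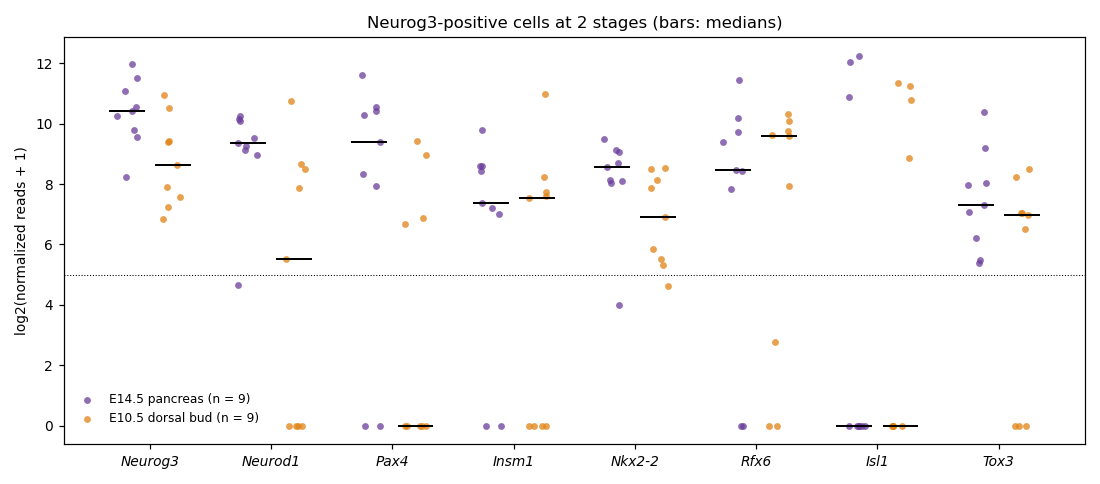
Each point is 1 Neurog3-positive cell, purple for the E14.5 pancreas (9 cells, left) and orange for the E10.5 dorsal bud (9 cells, right), on a log2(normalized reads + 1) axis with medians as black bars and a dotted line at 5. Neurod1 reads 0 in 4 of the orange cells and in none of the purple ones, and Isl1 reads 0 in most cells of both stages.

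The other lists differed between these 2 sets of Neurog3-positive cells as well. Over all 9132 genes measured here, 20.6% were higher at E14.5 by at least 1 and 42.3% were lower. Of 12 hormone and granule genes measured, 7 were higher at E14.5 by at least 1 and 1 was lower, with the granins Chga and Chgb at 7.39 against 0.91 and 7.70 against 1.23, and Pyy at 1.46 against 3.14. Of 9 cell cycle genes 8 were lower, with Mcm2 at 2.05 against 7.82 and Top2a at 0 against 5.59. Of 12 Notch genes 8 were lower and 2 higher, with Dll1 at 0 against 5.54. Among 15 further endocrine factors measured, 10 were higher and 3 lower. Nkx6-1 averaged 5.21 against 0.42 and was positive in 5 of 9 against 0 of 9 cells, and Sox11, among the lower ones, averaged 3.89 against 8.62. The median number of genes found was 3745 at E14.5 and 4838 at E10.5, and its part in these differences was not tested.

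Over the 186 cells of the pancreatic plates, the gene most like each member was sought among genes positive in at least 5 cells, by Pearson's r of log2 values. These correlations describe cells that share plates, depth and tissue, and carry no p. Neurod1 was most like Cck, the gut hormone cholecystokinin, with r = 0.91 and both positive in 30 cells, of 31 with Neurod1 and 33 with Cck, and r was 0.80, 0.95 and 0.99 on plates 2A, 2B and 4A. Vwa5b2 (0.87) and Dbpht2 (0.84) came next. Pax4 was closest to Cadps, a gene of granule release (0.75), and Vwa5b2 (0.73), and Neurog3 to Pax4 (0.70), Btbd17 (0.69) and Sema3g (0.68). The plates differed in these, with Neurog3 and Pax4 at 0.34, 0.67 and 0.83 on plates 2A, 2B and 4A, and Neurog3 and Btbd17 at 0.34, 0.91 and 0.85.

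Insm1 was closest to Nkx2-2 (0.72), Cck (0.72) and Vwa5b2 (0.70), and Nkx2-2 to Fam241b (0.73), Insm1 (0.72) and the potassium channel gene Kcnk16 (0.70). Fam241b overlaps Neurog3, as given above, and was positive in 41 of the 186 cells, against 19 for Neurog3. Rfx6 was closest to Rph3al, a gene of granule release (0.75), and Slc38a5, an amino acid transporter gene (0.70). Tox3 had no gene above 0.57, reached with Insm1.

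Isl1 stood lowest in likeness. Its closest genes were Irx2 (0.56), Pcsk2 (0.55) and Pyy (0.55), and r with Pcsk2 was 0.80 on plate 2A, 0.56 on plate 2B and -0.12 on plate 4A. Among the members, r between Isl1 and the others ran from 0.08 with Neurog3 and Tox3 to 0.48 with Neurod1, whereas the members other than Isl1 ran among themselves from 0.45 (Neurog3 with Rfx6) to 0.72 (Insm1 with Nkx2-2).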

How the data were processed

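Single GFP-positive cells of Tg(Prox1-EGFP) mouse embryos were sorted into plates, and libraries were made with Nextera XT, per the labels' protocols. The submitters' processing notes name STAR 2.5.3, Cufflinks and Cuffdiff 2.2.1, and GRCm38. No counter or annotation release is named in these sources. As deposited by the authors, the data are 1 table of log2 values for 20474 genes over the cells of all plates, in which 76.7% of entries are empty. The unit was settled from the values: after undoing the log2, subtracting 1 and scaling by 1 factor per cell, 1647510 of 1647530 values lay within 0.01 of a whole read. They were read as log2(reads / size factor + 1), and empty entries were set to 0. No 2 cells were identical (highest correlation 0.734). Reads per cell ran from 510222 to 3431728.

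From these values came means and SDs over cells, differences of means, shares of positive cells with exact Clopper-Pearson 95% intervals (3 counts as the limit for a share of 0), co-detection counts and correlations. A gene was measured in a comparison with a mean of at least 1 in 1 group, and higher or lower from a difference of 1. PCR reads are not independent molecules. The members and gene lists were chosen with earlier results of these data known. Genes named are the 8 members, Epcam and Prox1, up to 6 genes per list with the largest difference in a comparison, and the 3 genes most like each member. Others named are markers counted in sets of cells, chosen after their values were seen. Mafa, Insm2, Ins1 and Sst of the lists are not in the table used here. Coordinates are from GENCODE M21. The steps were tested on simulated cells. Alternatives were other pseudocounts, scalings, limits, splits and plates. Tools were python 3.11.15, numpy 2.4.6, pandas 2.3.3, scipy 1.17.1 and matplotlib 3.10.9.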

Additional observations from a re-analysis of the deposited data

How the results depend on the processing

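No member difference of at least 1 in size changed sign under any alternative run, and sign changes of smaller differences were not counted. Member differences moved by less than the spread between cells in 218 cases and by more in 14. Raising the limit for a positive cell to a log2 value of 8 left 12 cells with 4 or more members, against 27 as reported, 32 at 5 normalized reads and 36 at any read. A pseudocount of 10 left 3 members higher in Epcam-positive dorsal cells by at least 1, against 6, and a pseudocount of 0.1 gave 7 members lower in ventral cells, against 4. With a difference of at least 2 in place of 1, the genes counted over the whole table in the direction of the members were 333 against 1281 for the Epcam split, 1312 against 2984 for the Neurog3 split at E14.5, 641 against 2992 for the ventral cells and 682 against 1881 for Neurog3-positive cells of the 2 stages. Restricting E14.5 to Epcam-positive cells, scaling by total reads, thinning, and a minimum of 2000 genes per cell left the counts of higher or lower members within 1.5 times. Shares near the limit depend on it most: Nkx2-2 was found in 60.4% of plate 2A cells at any read and in 4.17% at a log2 value of 8. No paired analysis was possible because the labels give no replicate numbers and no test was run. Small numbers limit the E14.5 results, which rest on 9 Neurog3-positive cells.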
